A study of Mus musculus with 12 samples.

Results

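Gene expression at 3 h after poly(I:C) was compared with that at 1 h in dendritic cells (DC) grown from mouse bone marrow. The comparison used all arrays labelled 3 h and 1 h, which are 4 of the 12 arrays of the time course, 2 at each time. Each was an Affymetrix Mouse 430 2.0 array. All 45037 probe sets that are not controls were tested, and 34945 of them carry 1 gene symbol. With 1 probe set per gene, they cover 18193 genes.

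All samples came from C57BL/6 mice, whose age the labels give as 3 to 4 months in one field and 8 to 10 weeks in another. Bone marrow cells were grown for 6 days with GM-CSF, which the labels give as 10 ng/ml. The cells were then kept with poly(I:C), given in the labels as 2.5 ug/ml, for 3 h or 1 h, and the 0 h array of each experiment holds cells from before its addition. The methods of the study give higher concentrations of both agents, and also state that the mice were female and that the cells were selected for CD11c. Each experiment used the cells of 1 mouse, so that n = 2 at every time and each ratio was taken within an experiment. The methods also state that the 2 experiments were run months apart, each with its own hybridization and normalization. There were no arrays of unstimulated cells at 1 h or 3 h, so an effect of the compound and an effect of time in culture cannot be told apart. The precision of all values is limited by having 2 arrays per time.

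Poly(I:C) is a synthetic double-stranded RNA that cells read as a sign of viral infection, through the endosomal receptor TLR3 and the cytosolic helicase MDA5. These sensors activate NF-kB, which drives inflammatory cytokine and chemokine genes, and interferon regulatory factors, which drive the interferon-beta gene. Secreted type I interferon acts back on the cells through JAK kinases and STAT factors, and a complex that holds STAT2 and IRF9 binds the interferon-stimulated response element (ISRE) in the promoters of antiviral genes.

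Between 1 h and 3 h the change was mostly a rise, and the antiviral genes of the interferon response made up its largest values. At an adjusted p under 0.05 (limma, all 12 arrays, with a term for each time and for the experiment), 179 probe sets were higher at 3 h than at 1 h, which is 0.397% of those tested, and 9 were lower, which is 0.0200%. The rises had a median log2 fold change of 2.10, a 4.29-fold increase, and 38 of them exceeded 8-fold. The falls ran between 1.22 and 2.28 on the log2 scale. All fold changes are on the scale of log2(signal + 16), which understates the change of dim genes. At an unadjusted p under 0.05 there were 1778 higher and 1240 lower probe sets, and the median log2 fold change of all probe sets was -0.01.

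**Figure D1:**
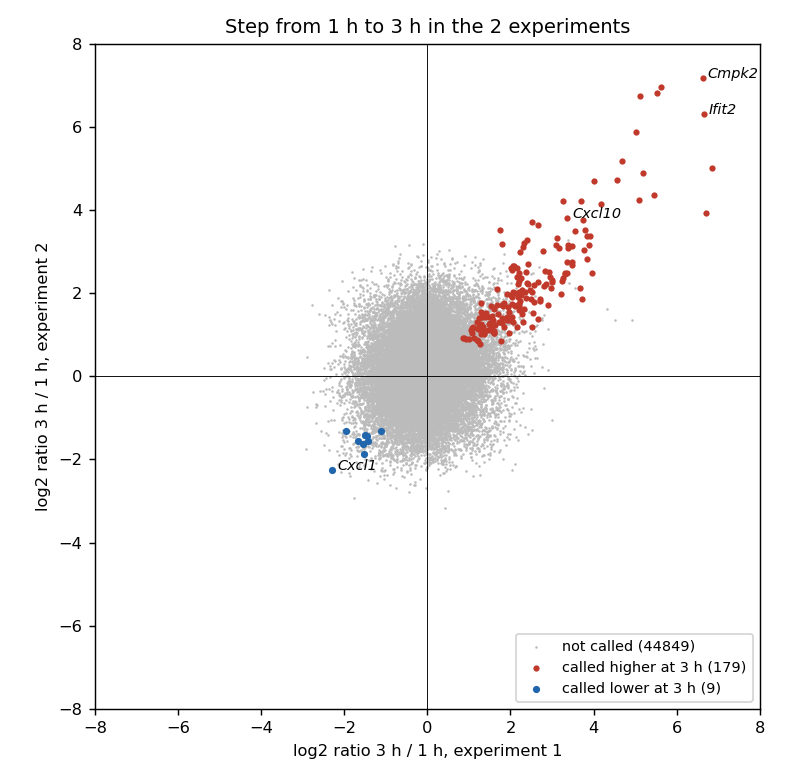
Each point is a probe set, with its log2 ratio of 3 h over 1 h in experiment 1 on the x axis and in experiment 2 on the y axis, both from signal + 16. The 179 probe sets called higher (red) and the 9 called lower (blue) have the same direction in both experiments, which the calls themselves favour. Most of the other 44849 (grey) form a cloud around 0.

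All 179 rises and all 9 falls had the same direction in both experiments, and 170 of the rises and 9 of the falls changed at least 2-fold in each. The calls rest on these same ratios, so this agreement largely follows from being called and is no separate evidence of reproducibility. Over all probe sets, 720 were at least 2-fold higher in both experiments (1.60%), 369 at least 2-fold lower in both (0.819%), and 603 changed at least 2-fold in opposite directions. The log2 ratios of the 2 experiments correlated at r = 0.18 over all probe sets and at r = 0.45 over the 22519 whose mean was not below the median. For the ratio of 1 h over 0 h the values were 0.0024 and 0.058. Probe sets are not independent replicates, and these values are a description. The study, on genes that passed its own filter, also found its 1 h arrays poorly correlated between experiments. It left that time out of its consistency filtering and clustering. The 3 h arrays had median signals of 86.3 and 84.3 and the 1 h arrays of 91.4 and 70.9 in experiments 1 and 2. Single arrays moved the counts of calls. Without the 3 h array of experiments 1 and 2 there were 78 and 114 rises and 3 and 1 falls. Without the 1 h array there were 98 and 97 rises and 0 and 1 falls. Without a 24 h array, which enters the estimate of the spread, there were 289 and 294 rises and 57 and 61 falls, and without a 6 h array 3 and 4 falls. Leaving out the 0 h array of experiment 1 left 4 falls.

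The called rises belonged to 120 genes, counting any probe set with 1 symbol, and the called falls to 6. RefSeq promoter windows (build GRCm38.p6, 250 bases before to 50 bases after the start of each gene) were at hand for 94 of the 120 and for 3 of the 6. The ISRE, searched as GAAANNGAAA on both strands, was found in the windows of 31 of the 94 genes (33.0%), and in those of 1079 of all 27025 genes in the table (3.99%). The NF-kB consensus was found in 18 of the 94 (19.1%), against 9.55% of all genes. Another motif searched, GAS (TTCNNNGAA), was found in 12 of the 94 (12.8%), against 9.55% of all genes. Of the 3 windows of genes that fell, 1 held the NF-kB consensus and 0 held the ISRE or GAS. A match is a description of the letters and not a binding site. Of the largest rises named below, Rsad2, Ifit1, Ifit1bl1, Ifit3 and Slfn8 are among the 31 genes with an ISRE match. Cmpk2 and Ifit2, which rose most, are not among them. Nor are Mx1, Mx2, Oasl1, Oasl2, Usp18, Rtp4, Irf7 and Cd69. Whether such a gene had a window without a match, or no window, is not separated here. Stretches around the matches are shown for genes described below that were picked for holding a match. All of them lie upstream of the start, 5′ to 3′ on the strand of the gene, with the matches in capitals.

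The first 4 are antiviral or interferon-inducible genes that rose, and their capitals mark the ISRE. Ifit1 and Ifit3 have 2 matches each and Rsad2 has 1. The 2 matches of Irgm1 overlap.
Ifit1 (chr19:34640765-34640833, + strand): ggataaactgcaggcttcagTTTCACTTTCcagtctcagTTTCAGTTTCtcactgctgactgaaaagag
Ifit3 (chr19:34583353-34583436, + strand): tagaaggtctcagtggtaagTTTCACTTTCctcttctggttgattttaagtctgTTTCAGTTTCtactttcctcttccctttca
Rsad2 (chr12:26456543-26456592, - strand): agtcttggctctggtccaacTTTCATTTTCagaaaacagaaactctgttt
Irgm1 (chr11:48871421-48871470, - strand): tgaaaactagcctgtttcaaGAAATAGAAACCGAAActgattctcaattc

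Cxcl10, a chemokine gene that was induced by 1 h and rose again by 3 h, has an ISRE match (the first run of capitals) and 3 matches to the NF-kB consensus (the other runs), 2 of which overlap. It is shown beside Cxcl1, the chemokine gene that fell most, and Il6, whose capitals mark the NF-kB consensus alone. Whether the motifs of a gene go with its direction of change was not tested. The 2 matches of Cxcl1 overlap.
Cxcl10 (chr5:92348963-92349122, - strand): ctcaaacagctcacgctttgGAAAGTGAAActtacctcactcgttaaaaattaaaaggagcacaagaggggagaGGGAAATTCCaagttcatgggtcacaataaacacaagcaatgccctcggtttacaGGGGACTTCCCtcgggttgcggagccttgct
Cxcl1 (chr5:90891154-90891204, + strand): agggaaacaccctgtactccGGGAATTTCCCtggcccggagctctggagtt
Il6 (chr5:30013050-30013099, + strand): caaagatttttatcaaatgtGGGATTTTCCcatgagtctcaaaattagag

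Among the ligands and receptors that start the interferon response, no gene was called. Interferon-beta is the first type I interferon that most cells make. Its gene, Ifnb1, read 522 and 213 at 3 h, against 550 and 168 at 1 h, so its level at 3 h stayed close to that at 1 h in each experiment (log2 fold change 0.12 ± 0.85 SE, adjusted p = 1.0). It had stood at 32.6 and 48.4 before poly(I:C), and reached 4588 and 1875 by 6 h, so it went up again after 3 h. Ifna4, an interferon-alpha gene, read 49.98 and 6.75 at 3 h, against 54.0 and 6.72 at 1 h, and reached 1384 and 730 by 6 h. Of 9 measured interferon ligands 0 were called in either direction, beside 0.572% of all genes called higher and 0.0275% called lower. Many alpha-interferon genes are near-identical, so their probe sets may share signal.

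The receptor and JAK-STAT genes changed little, apart from Stat2. Stat2, whose product is part of the ISRE-binding complex, read 3163 and 2290 at 3 h, against 579 and 479 at 1 h, with no overlap between the times (log2 fold change 2.32 ± 0.16 SE, adjusted p = 2.6e-05). Such a lack of overlap, here and below, is only a description, since its share over all probe sets was not counted. Stat2 was the 1 called member of 15 in this list, beside 0.572% of all genes called higher. The list's median log2 fold change was 0.06 (-0.0039 with the arrays centred on their medians), beside -0.01 over all genes. Ifnar1, a subunit of the type I interferon receptor, read 2474 and 2598 at 3 h, against 1849 and 2328 at 1 h (adjusted p = 0.92).

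Interferon regulatory factors (IRF) are transcription factors of interferon and interferon-induced genes. Of the 8 measured, 3 were called higher, beside 0.572% of all genes. Irf7, which amplifies the interferon-alpha response, read 2958 and 2139 at 3 h, against 296 and 100.03 at 1 h (log2 fold change 3.73 ± 0.30 SE, adjusted p = 7.6e-05). Irf1 read 7471 and 3639 at 3 h, against 1674 and 1587 at 1 h (log2 fold change 1.67, adjusted p = 0.017). Irf9, the DNA-binding partner of STAT2, read 2390 and 1881 at 3 h, against 811 and 566 at 1 h (log2 fold change 1.62, adjusted p = 0.00088). Each of the 3 was higher on both 3 h arrays than on either 1 h array, and Irf1 was no longer called without either 1 h array, either 12 h array or the 3 h array of experiment 1.

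Among the sensors of double-stranded RNA, the cytosolic helicases rose. Ifih1, which encodes MDA5, read 12873 and 8008 at 3 h, against 1480 and 874 at 1 h (log2 fold change 3.14 ± 0.20 SE, adjusted p = 1.6e-05). Ddx58, which encodes the related helicase RIG-I, read 3358 and 3341 at 3 h, against 551 and 716 at 1 h (log2 fold change 2.39, adjusted p = 2.2e-05). Dhx58, which encodes LGP2 of the same family, had a log2 fold change of 2.18 (adjusted p = 0.0017). The signal adaptors Mavs and Ticam1 and the kinase Tbk1 were not called, and Tlr3 read 420 and 186 at 3 h, against 137 and 138 at 1 h (adjusted p = 0.69). A dimmer probe set of Tlr3 read 342 and 173 at 3 h, against 48.8 and 65.1 at 1 h. It was not called either (log2 fold change 1.85, adjusted p = 0.061). In all, 3 of 14 sensors and adaptors were called higher, beside 0.572% of all genes, and the median log2 fold change of the list was 0.78. Without either 24 h array 6 of the 14 were called, and Dhx58 was no longer called without the 1 h or the 3 h array of experiment 1.

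Antiviral effector genes, whose products degrade, bind or modify viral RNA and proteins, formed the main block of the rise. Of 39 measured, 29 were called higher and 0 lower, beside 0.572% and 0.0275% of all genes. The list's median log2 fold change was 2.38, beside -0.01 over all genes. The median log2 ratio was 2.28 in experiment 1 and 2.14 in experiment 2. For 1 h over 0 h, a ratio that shares the 1 h arrays, the medians were 0.12 and -0.0026. These genes were chosen with results of these data known, so that the counts are a description.

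The largest rise was that of Cmpk2, which encodes a mitochondrial nucleotide kinase next to Rsad2 in the genome. It read 15065 and 9964 at 3 h, against 136 and 52.6 at 1 h (log2 fold change 6.91 ± 0.25 SE, a 120-fold increase, adjusted p = 2.5e-07). Rsad2, which encodes viperin, an enzyme that makes a chain-terminating nucleotide, read 22678 and 17352 at 3 h, against 448 and 124 at 1 h (log2 fold change 6.29 ± 0.38 SE, adjusted p = 9.8e-06). At 0 h Rsad2 read 85.0 and 80.9, so in experiment 1 its level at 1 h was above that at 0 h, and in experiment 2 the 2 levels were closer.

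The Ifit genes encode proteins that bind viral RNA ends or the translation machinery. Ifit2 read 14772 and 8822 at 3 h, against 131 and 94.2 at 1 h (log2 fold change 6.49 ± 0.31 SE, adjusted p = 1.9e-06). Ifit1, with 2 ISRE matches in the stretch above, read 13477 and 11869 at 3 h, against 402 and 187 at 1 h (log2 fold change 5.44, adjusted p = 1.8e-06). For Ifit3, which has 2 such matches, the signals were 6364 and 3821 at 3 h, against 170 and 188 at 1 h (log2 fold change 4.67, adjusted p = 2.2e-06). All of these genes were higher on both 3 h arrays than on either 1 h array. Ifit genes have close copies in the genome and may share signal between probe sets.

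The other large rises were in genes of several antiviral families. Usp18, which strips ISG15 from proteins and restrains signaling at the interferon receptor, read 8225 and 7108 at 3 h, against 331 and 252 at 1 h (log2 fold change 4.65 ± 0.17 SE, adjusted p = 2.5e-07). Mx1 and Mx2, dynamin-like GTPases that block viral replication, had log2 fold changes of 3.96 and 5.04. Oasl1 and Oasl2, of the oligoadenylate synthetase family, had 4.93 and 3.76. Rtp4, a chaperone of membrane receptors, had a log2 fold change of 4.36, and Slfn8, of the Schlafen family, of 3.65. Adjusted p values for these 6 genes ran between 9.4e-06 and 0.00011. On their brightest probe sets, the effectors not called included Adar, Samhd1, Bst2 and Ifitm3, with log2 fold changes between 0.56 and 0.95. A dimmer probe set of Adar, 1 of its 3, was called higher (log2 fold change 1.20, adjusted p = 0.035). The Schlafen, Mx and oligoadenylate synthetase genes also have close copies.

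Interferon-inducible GTPases, which act on the vacuoles of intracellular pathogens, rose almost as a whole list. Of 10 measured, 9 were called higher, beside 0.572% of all genes, and the median log2 fold change was 2.39. Irgm1, whose overlapping ISRE matches lie just before its start, read 7676 and 5176 at 3 h, against 497 and 480 at 1 h (log2 fold change 3.65 ± 0.16 SE, adjusted p = 1.5e-06). Ifi47 read 6334 and 4533 at 3 h, against 590 and 515 at 1 h (log2 fold change 3.24, adjusted p = 3.2e-06). Irgm2, at a log2 fold change of 3.53, had an adjusted p of 0.0017 and was not called without the 1 h array of experiment 1. The member not called, Gbp8, had a log2 fold change of 1.13. Without the 1 h array or the 3 h array of experiment 1, 5 of the 10 were called.

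**Figure D2:**
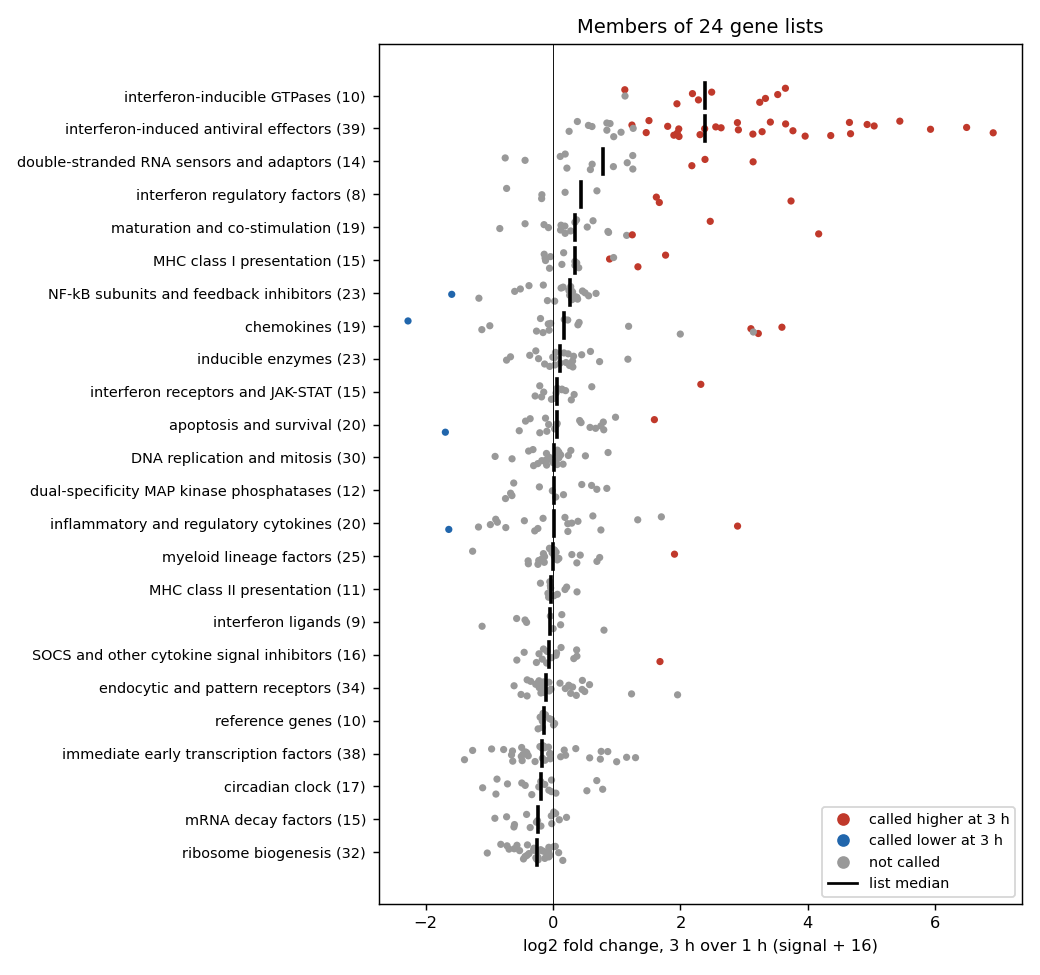
Each point is a gene, at its log2 fold change of 3 h over 1 h (signal + 16) on the x axis, in 1 row per gene list with the number of measured members in brackets. Red points were called higher at 3 h, blue points lower, and the black bar is the list median, which is 2.39 for the GTPases and 2.38 for the antiviral effectors and at most 0.78 for the other lists.

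Chemokines, the secreted proteins that draw leukocytes, went both ways. Cxcl10, which attracts activated T cells and NK cells, read 20569 and 20371 at 3 h, against 1988 and 1424 at 1 h (log2 fold change 3.59 ± 0.41 SE, adjusted p = 0.0014). Before poly(I:C) it stood at 96.8 and 61.3, so it had left its starting level by 1 h. Its step from 1 h to 3 h, the longer in time, was close to its step before (difference -0.59 on the log2 scale, adjusted p = 1.0). Cxcl11, a ligand of the same receptor, read 803 and 432 at 3 h, against 36.9 and 63.8 at 1 h (log2 fold change 3.22, adjusted p = 0.0018), and was not called when either array of experiment 1 was left out. Ccl5, which attracts T cells and monocytes, read 16876 and 14249 at 3 h, against 2957 and 1078 at 1 h (log2 fold change 3.11, adjusted p = 0.0011). Cxcl9, the remaining ligand of this receptor, read 765 and 63.7 at 3 h, against 9.52 and 15.3 at 1 h, and with such a spread between experiments it was not called (adjusted p = 0.21).

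Cxcl1, Cxcl2 and Cxcl5, which attract neutrophils, had lower signals at 3 h in both experiments, and only Cxcl1 passed the test. Cxcl1 had the largest called fall of any gene, at 1281 and 560 at 3 h, against 6359 and 2733 at 1 h, a log2 fold change of -2.28 ± 0.28 SE (adjusted p = 0.0021). Of its 3 probe sets, 1 was called and all were below 0. Cxcl2 read 11923 and 8494 at 3 h, against 23556 and 20257 at 1 h, and was not called (log2 fold change -1.12, adjusted p = 0.72). Cxcl5 read 596 and 161 at 3 h, against 1264 and 318 at 1 h, and was not called (adjusted p = 0.43). Cxcl1 and Cxcl2 were lower on both 3 h arrays than on either 1 h array, while the Cxcl5 arrays overlapped. Over 19 chemokines, 3 were called higher and 1 lower, beside 0.572% and 0.0275% of all genes, with a median log2 fold change of 0.18.

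Other cytokine genes showed the same mixture. Il15, which sustains NK cells and memory T cells, read 1446 and 505 at 3 h, against 131 and 77.7 at 1 h (log2 fold change 2.90 ± 0.49 SE, adjusted p = 0.025). It was not called without either 1 h array, either 12 h array or the 3 h array of experiment 1. A probe set of Il15ra, which presents it to other cells, was called higher as well, while the brighter of its probe sets had an adjusted p of 0.054 and passed without the 3 h array of experiment 2 or either 24 h array. Tnfsf9, the ligand of the co-stimulatory receptor 4-1BB, read 334 and 659 at 3 h, against 1345 and 1661 at 1 h (log2 fold change -1.64 ± 0.26 SE, adjusted p = 0.019). Il15 and Tnfsf9 were the 2 called members of 20, beside 0.572% of all genes called higher and 0.0275% called lower.

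Of the early inflammatory cytokines, Tnf was closest to the threshold. Tnf read 5245 and 4445 at 3 h, against 11628 and 10178 at 1 h, without overlap, and did not pass (log2 fold change -1.17 ± 0.23 SE, adjusted p = 0.070), though it did without either 24 h array. Its level at 6 h, 9257 and 8454, was above that at 3 h in both experiments. Il1a read 4697 and 5394 at 3 h, against 7894 and 10796 at 1 h (adjusted p = 0.43), and Il1b 10176 and 10797 at 3 h, against 11644 and 13120 at 1 h (adjusted p = 0.98). Il6 moved in opposite directions, at 2970 and 515 at 3 h, against 2276 and 1014 at 1 h.

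**Figure D3:**
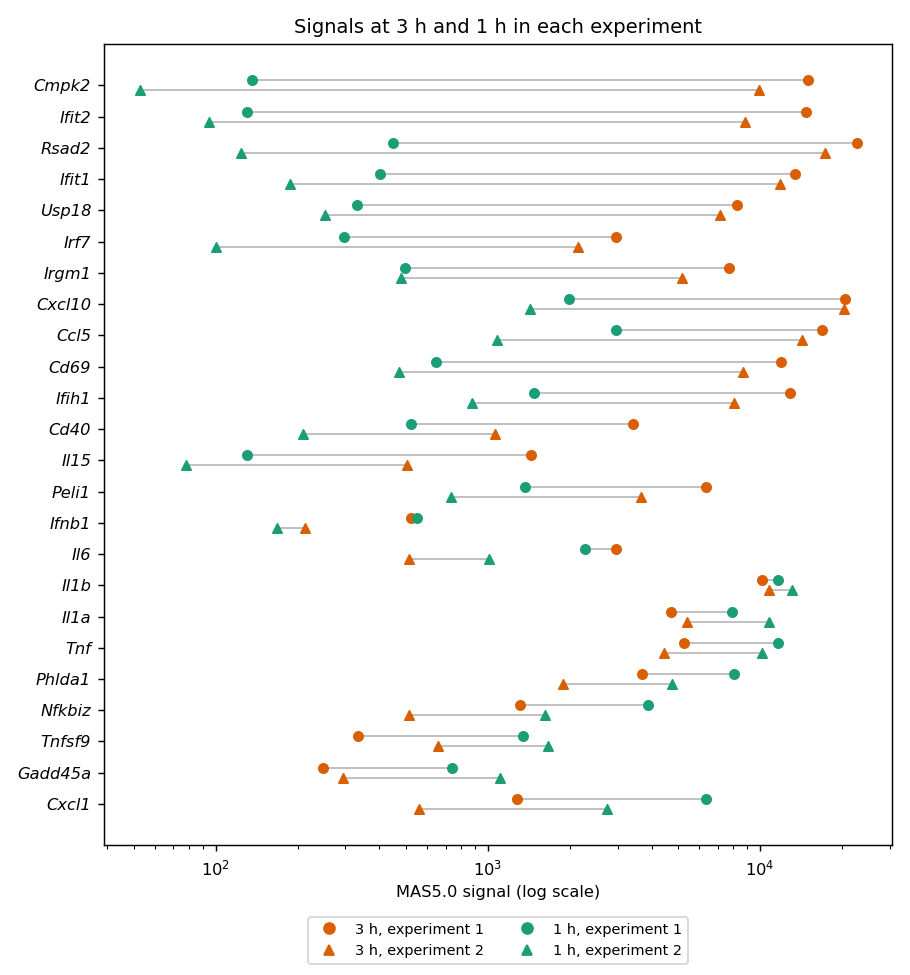
The x axis is the MAS5.0 signal on a log scale and each row is a gene, with 3 h arrays in orange and 1 h arrays in green, circles for experiment 1 and triangles for experiment 2. Grey lines join the arrays of 1 experiment. The longest lines with 3 h on the right lie in the rows of Cmpk2, Rsad2 and Ifit2. The rows of Cxcl1 and Gadd45a have 3 h on the left.

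Outside the cytokines and chemokines, 4 named genes were called lower. Nfkbiz encodes IkB-zeta, a nuclear cofactor of NF-kB needed for a subset of inflammatory genes such as Il6. It read 1316 and 515 at 3 h, against 3884 and 1626 at 1 h (log2 fold change -1.59 ± 0.22 SE, adjusted p = 0.0055). Of its 3 probe sets 2 were called lower and all were below 0. Nfkbiz was the 1 called gene among 23 NF-kB subunits and inhibitors, beside 0.0275% of all genes called lower. The median log2 fold change of that list was 0.26.

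Gadd45a, a stress-induced gene of growth arrest and DNA repair, read 247 and 293 at 3 h, against 737 and 1108 at 1 h (log2 fold change -1.69 ± 0.31 SE, adjusted p = 0.045). Phlda1, an early response gene, read 3687 and 1886 at 3 h, against 8055 and 4744 at 1 h (log2 fold change -1.22, adjusted p = 0.047). Metrnl, a secreted protein gene, was called lower by 1 of 3 probe sets, at 227 and 144 at 3 h, against 753 and 457 at 1 h (adjusted p = 0.021), while its brightest probe set had a log2 fold change of -0.02. The other 2 called probe sets have no gene symbol. Gadd45a, Phlda1 and Metrnl were each lower on both 3 h arrays than on either 1 h array. Leaving out any 1 of the 4 arrays at 3 h and 1 h ended the calls of Nfkbiz, Tnfsf9, Gadd45a, Phlda1 and Metrnl. Cxcl1 was not called when the 3 h array of experiment 2 was left out, nor when the 1 h array of experiment 1 was. Gadd45a and Phlda1 also depended on each 0 h and 6 h array, Tnfsf9 on each 6 h and 12 h array, and Metrnl on the 0 h and 6 h arrays of experiment 1.

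The falls that came next by unadjusted p, and did not pass, were led by Herpud1, an endoplasmic reticulum stress gene. It read 1131 and 1580 at 3 h, against 2510 and 2673 at 1 h (log2 fold change -0.95, adjusted p = 0.051). After it and Tnf came Fn1, Ggnbp2, Rnmt, Sfpq, Bop1, Lrp1b, Tec and Smpd2, with adjusted p values between 0.073 and 0.11. Without either 24 h array Herpud1, Fn1, Ggnbp2, Rnmt, Sfpq and Tec passed, as did Fn1 without either 12 h array, Bop1 without the 24 h array of experiment 2, and Smpd2 without the 3 h array of experiment 2. Fn1, the gene of the matrix protein fibronectin, read 126 and 288 at 3 h, against 1058 and 1002 at 1 h on this probe set, and its brighter probe set had a log2 fold change of -0.19. Each of these names stands for 1 probe set. The brightest probe sets of Bop1, Rnmt and Ggnbp2 had log2 fold changes of 0.15, -0.08 and -0.30. The other probe sets of Sfpq lay between -0.48 and 0.10. Lrp1b was near the floor, at no more than 37.5 on any of these 4 arrays.

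To ask which genes start and which turn between the steps, the log2 change from 1 h to 3 h was set against that from 0 h to 1 h in the same fit. The later step is the longer, so a difference is between steps as sampled and not between rates. Of all probe sets, 52 had a later step above the earlier one (0.115%) and 10 a later step below it (0.0222%), both at an adjusted p under 0.05. The 2 steps share the 1 h arrays with opposite signs, so an error in a 1 h array enters this difference in full. Without the 1 h array of experiments 1 and 2 the counts were 12 and 7 above, and 1 and 2 below. Without the 3 h array of experiment 1 they were 11 and 5, and without the 0 h array of experiment 2 they were 14 and 6. Without a 6 h array 27 were above, without a 12 h array 31, and without a 24 h array 92 and 91, with 23 below. The largest differences above were in genes already described, Cmpk2 (7.27), Ifit2 (6.02) and Rsad2 (5.30, or 4.92 on the probe set described above). Next came the Ifit1-like gene Ifit1bl1 (4.84), Usp18 (4.35) and Ifit3 (4.29). The levels of all these genes at 1 h differed from those at 0 h by far less than those at 3 h did.

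On the other side stood genes that were up by 1 h and then stopped or turned. The difference was -5.65 for Il6, -5.31 for Nfkbiz (-4.69 on its brightest probe set) and -5.06 for Cxcl1. It was -4.28 for Tnfsf9, -3.27 for Il1a and -3.04 for Tnf. Adjusted p values for all of these ran between 0.00066 and 0.018. Tnfaip3, which encodes the NF-kB inhibitor A20, had a difference of -2.51 on the dimmer of its 2 probe sets (adjusted p = 0.024). Cxcl1 stood at 789 and 443 before poly(I:C) and was back at 789 and 575 by 6 h, after its 6359 and 2733 at 1 h. Tnfsf9 stood at 133 and 373 before poly(I:C), and its 6 h signals were 569 and 842. Il6 stood at 49.9 and 5.23 before poly(I:C), and its difference came mostly from the step to 1 h.

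**Figure D4:**
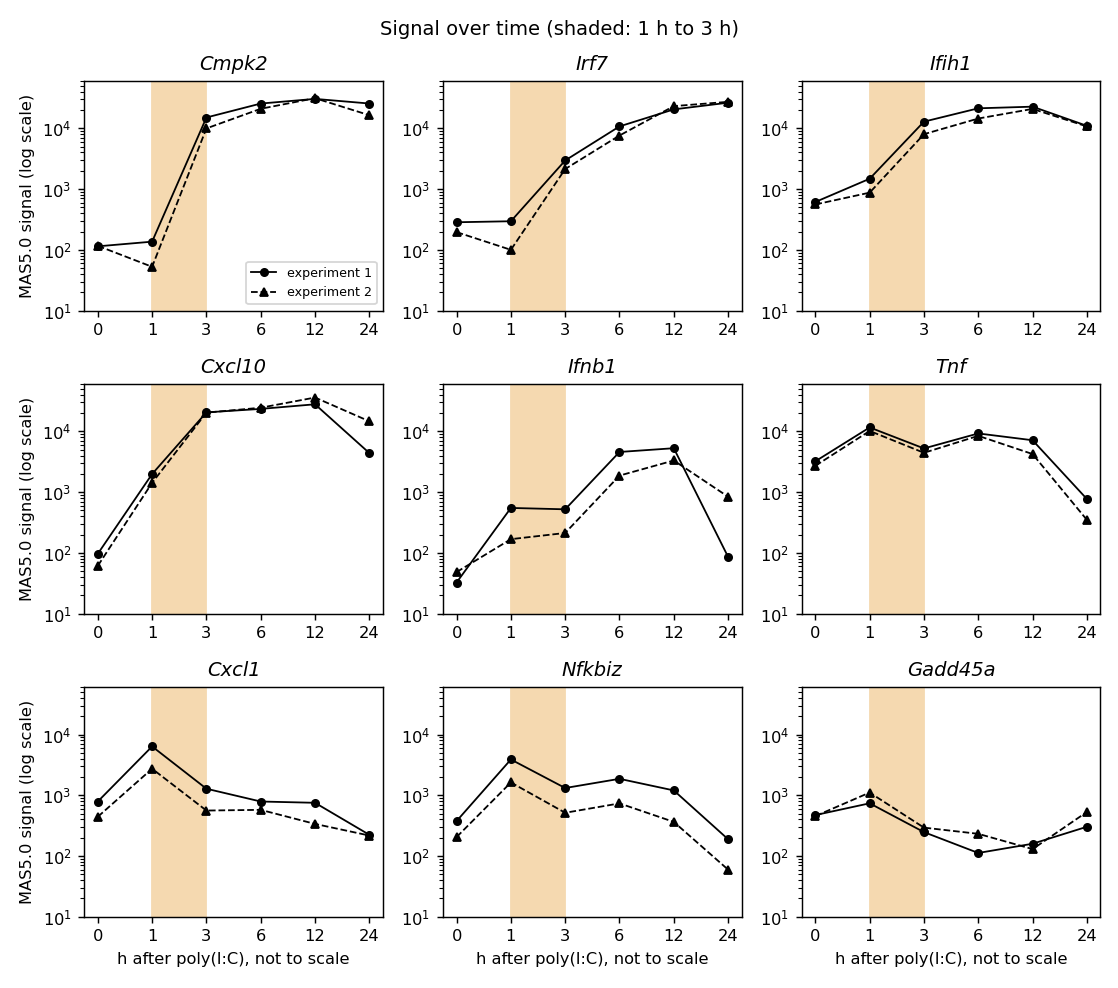
MAS5.0 signal on a log scale against hours after poly(I:C) (spaced evenly, not to scale) for 9 genes, with experiment 1 as circles and solid lines and experiment 2 as triangles and dashed lines. In the shaded step from 1 h to 3 h Cmpk2, Irf7, Ifih1 and Cxcl10 climb, Ifnb1 stays level and then climbs to 4588 and 1875 at 6 h, and Tnf, Cxcl1, Nfkbiz and Gadd45a descend.

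The later levels of the called probe sets were read as ratios of 6 h and 24 h over 0 h. These arrays do not enter the fold change of 3 h over 1 h, but they enter the estimate of the spread that decided the calls, so the counts are a description. Of the 179 probe sets called higher, 173 (96.6%) were at least 2-fold higher at 6 h than at 0 h in both experiments, beside 2.31% of all probe sets. At 24 h the count was 159 (88.8%), beside 2.95% of all. The 9 that fell had medians of -0.51 and -0.80 for the log2 ratio of 6 h over 0 h in experiments 1 and 2. Of these 9, 3 were at least 2-fold higher and 1 at least 2-fold lower at 6 h than at 0 h in both experiments, so they had no common direction against the starting level.

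Of 19 maturation and co-stimulation genes, 3 were called higher, beside 0.572% of all genes, and the median log2 fold change of the list was 0.34. Cd69, a membrane protein of early activation that retains cells in tissue, read 11987 and 8682 at 3 h, against 644 and 473 at 1 h (log2 fold change 4.17 ± 0.36 SE, adjusted p = 0.00014). Cd40, the receptor through which T cells license DC, read 3419 and 1063 at 3 h, against 523 and 209 at 1 h (log2 fold change 2.47, adjusted p = 0.014). Marcksl1, an actin-binding protein, was called with a log2 fold change of 1.24, and the co-stimulatory genes Cd80 and Cd86 were not called, with log2 fold changes of 0.12 and 0.19. Without either 1 h array, or the 3 h array of experiment 1, Cd69 was the 1 member still called. The call of Marcksl1 also ended without the 3 h array of experiment 2 or any 1 of the 6 h and 12 h arrays.

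In the MHC class I pathway 3 of 15 genes were called higher, beside the same 0.572% of all genes. Tap1, a subunit of the peptide transporter, read 3386 and 2101 at 3 h, against 943 and 633 at 1 h (log2 fold change 1.77 ± 0.15 SE, adjusted p = 0.00010). Nlrc5, the transactivator of these genes, and Psmb9, an immunoproteasome subunit, had log2 fold changes of 1.33 and 0.89. B2m, H2-K1 and H2-D1, which encode the MHC class I chains, had log2 fold changes between -0.14 and -0.05 on their brightest probe sets. That of B2m was 0.12 under quantile normalization. Other probe sets, none of them called, ran up to 0.67 for H2-K1 and 0.89 for H2-D1, and down to -0.17 for B2m. Without either 1 h array, or the 3 h array of experiment 1, Tap1 was the 1 member still called. Psmb9 (adjusted p = 0.038) also lost its call without the 3 h array of experiment 2 or any 1 of the 0 h, 6 h and 12 h arrays, and with the arrays centred. None of 11 MHC class II genes was called.

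Single members of other lists rose. Socs1, a feedback inhibitor of JAK kinases, read 1881 and 1577 at 3 h, against 442 and 627 at 1 h (log2 fold change 1.68, adjusted p = 0.041). Daxx, a histone chaperone and death-domain adaptor, read 5540 and 3993 at 3 h, against 1597 and 1506 at 1 h (adjusted p = 0.0058), and Batf2, a transcription factor of myeloid cells, had a log2 fold change of 1.91 (adjusted p = 0.035). None of these 3 was called without either 1 h array or the 3 h array of experiment 1. Socs1 and Batf2 also lost their calls without the 3 h array of experiment 2, any 1 of the 6 h and 12 h arrays, with the arrays centred, or with a pseudocount of 64. Outside the lists, Peli1, a ubiquitin ligase of Toll-like receptor signaling, read 6363 and 3644 at 3 h, against 1369 and 735 at 1 h (adjusted p = 2.5e-05). Of its 5 probe sets, 3 were called higher. Mxd1, a repressor that competes with MYC for its partner MAX, read 1072 and 870 at 3 h, against 205 and 86.5 at 1 h, and all 3 of its probe sets were called. Peli1, Mxd1 and Cgas, the sensor of cytosolic DNA that was called at a log2 fold change of 1.32, were named after their values were seen. Cgas was not called when any 1 of the 4 arrays at 3 h and 1 h was left out.

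Several groups had no called member, which for lists of this size is near the background of 0.572% of all genes called higher and 0.0275% called lower. Of 38 immediate early transcription factors 0 were called, with a median log2 fold change of -0.17. Among the lower values, Klf4, Id3 and Myc had -1.26, -1.39 and -0.96, while 11 members lay above 0, the highest at 1.29. The mRNA decay factors had a median of -0.24 over 15 genes, and the dual-specificity phosphatases of 0.02 over 12, or -0.05 with the arrays centred. For 32 ribosome biogenesis genes the median was -0.25, with 28 of the 32 below 0 and 26 to 30 under the other scalings. That tilt was not particular to them. Below 0 were 27 of 38 immediate early factors, 11 of 15 mRNA decay factors, 13 of 17 clock genes and 8 of 10 reference genes. Of the 12 phosphatases 6 were. The median over all genes was -0.01. The reference genes, which most cells hold steady, had a median of -0.14 over 10, which ran between -0.21 and -0.03 under other scalings. The clock genes had a median of -0.19 over 17, and Per1 read 102 and 122 at 3 h, against 298 and 223 at 1 h (adjusted p = 0.20).

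The labelled cell type was checked against markers. The DC markers Itgax (CD11c), Cd74 and Csf2rb read between 18281 and 32803 on the 4 arrays, while Cd209a and Flt3 were at 142 or less. None of the 12 DC markers was called. The summed signal of 10 neutrophil markers was 20997 and 29615 at 3 h, against 20407 and 33511 at 1 h, and none was called. Mmp8 and S100a8 made up nearly all of it, and Elane, Mpo, Camp and Ltf were at 104 or less. For 7 NK cell markers it was 475 and 470 at 3 h, against 301 and 240 at 1 h, and 1 was called, Klrk1, the gene of the receptor NKG2D, at 290 and 171 at 3 h, against 110 and 39.2 at 1 h (log2 fold change 1.52, adjusted p = 0.029). That call was kept only without a 24 h array when single arrays were left out. Over all genes, 0.572% were called higher. No member was called in the lists for T cells, B cells, mast cells with basophils and eosinophils, erythroid cells, or fibroblasts with endothelium. In bulk samples fewer cells of a type and less RNA per cell cannot be told apart, and the part of other cells in the results was not tested.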

How the data were processed

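The deposited intensity values are linear MAS5.0 signals, which the authors had scaled array by array. Their mean after trimming 2% at either end is 500 on each array. Of 45101 probe sets, 64 controls were left out, and 34945 of the rest have 1 symbol in the platform annotation, 932 several and 9160 none. Signals below 16 made up 19.5% to 23.1% of an array.

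Log2(signal + 16) of the 12 arrays was modelled by limma 3.58.1 (R 4.3.3) on time and experiment (the replicate block), with an intensity trend in the empirical Bayes step (5 residual and 6.42 prior degrees of freedom). P values were adjusted by Benjamini-Hochberg over all 45037 probe sets. The experiments pair the arrays because the methods of the study state that each used the cells of 1 mouse. Arrays of 1 experiment deviated together from the time means, with r between 0.16 and 0.36 and a median of 0.30 in 15 pairs. The fit was tried on simulated data with known changes placed in brighter probe sets. It missed a part of them, so a gene that was not called may still have changed. Tables and figures used Python 3.11.15, numpy 2.4.6, pandas 2.3.3 and matplotlib 3.10.9.

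In lists, each gene is its probe set with the highest mean. Named genes are the 15 largest rises and falls that passed in the same direction in both experiments (most changed probe set), the 10 next falls by unadjusted p, the 10 largest differences between the steps, list members with the smallest p, members that moved at least 2-fold in opposite directions, and a few cytokine and interferon genes. The members, lists and rules were chosen with earlier results of these data known. Alternatives were other pseudocounts (1 and 64), a filter at the median mean, other scalings, no replicate block, no trend, fewer arrays, and each array left out. Promoter sequences and coordinates are from RefSeq.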

Additional observations from a re-analysis of the deposited data

Results flagged for a closer look

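Among the list genes, 5 moved at least 2-fold in opposite directions in the 2 experiments, which was not tested. The difference between the log2 ratios of 3 h over 1 h (experiment 1 minus experiment 2) was 3.81 for Dusp8, a MAP kinase phosphatase, which read 131 and 34.1 at 3 h, against 9.70 and 108 at 1 h. It was 3.48 for Fosb, an immediate early transcription factor, which read 39.7 and 7.78 at 3 h, against 10.2 and 109 at 1 h. For Hba-a1 (hemoglobin alpha) it was -3.63, for Dcn (decorin) 2.42 and for Cd79a (a B cell receptor chain) 2.31, and these 3 were below 80 on all 4 arrays. Over all probe sets, 603 moved in this way.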

How the results depend on the processing

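With no replicate block, 74 probe sets were called higher and 0 lower, and with no trend 66 and 0. With only the 4 arrays at 1 h and 3 h, which leave 1 residual degree of freedom, there were 554 and 372, with only the 8 arrays at 0 to 6 h 345 and 137, and with the filter at the median mean 194 and 16. Leaving out each array gave 78 to 294 higher and 0 to 61 lower. For the difference of the steps, no replicate block left 6 above and 0 below, no trend 0 and 0, and the 8 arrays 104 and 46, and leaving out each array gave 7 to 92 and 1 to 23. The called list members were 18 antiviral effectors and 4 GTPases with no trend. IRF members were 1 with no replicate block and 1 with no trend. Sensors were 8 with the 4 arrays and 6 with the 8 arrays, chemokines 0 with no trend and 5 with the 4 arrays, and maturation genes 1 with no block, 1 with no trend and 7 with the 4 arrays. MHC class I genes were 0 with no block and 1 with no trend. Leaving out each array gave 22 to 32 antiviral effectors, 5 to 9 GTPases, 2 to 3 IRF, 2 to 6 sensors, 2 to 4 chemokines, 1 to 3 maturation genes and 1 to 3 MHC class I genes. Of 46 called genes named in the text, 21 passed under every alternative, among them Cmpk2, Usp18, Ifih1, Stat2 and Cd69, and 0 changed direction. None of the 6 genes that fell passed without the replicate block. Centring the arrays moved the median log2 fold change of all probe sets from -0.01 to -0.08. The cause of these changes was not tested.

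For single genes, leaving out each array turned the sign of values near 0 or with a wide spread. The log2 fold change ranged between -0.74 and 0.16 for Il6, -0.72 and 0.96 for Ifnb1, -0.66 and 0.57 for Ifna4, -0.89 and 2.10 for Dusp8, -1.95 and 0.65 for Fosb, -0.073 and 0.31 for Cd80, -0.10 and 0.48 for Cd86, and -0.28 and 0.043 for H2-K1. That of B2m was 0.12 under quantile normalization. The signals of n = 2 arrays per time limit all of these values.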
